A study of Mus musculus with 12 samples.

Results

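The genes described here are 32 genes of the male germ line, measured by RNA sequencing of mouse epididymal white adipose tissue (eWAT), the fat pad that lies beside the epididymis and the testis. They were taken from the 23474 genes of the deposited expression table by their symbols, and they were selected on their FPKM values in these same libraries, which were already known, so that their levels are given as a description. Of the 32 genes, 31 were above 0 in at least 1 library. Gapdhs, the glyceraldehyde-3-phosphate dehydrogenase of sperm, was listed at 0 in all 12 libraries.

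All mice were male C57BL/6J, entered the diets at 5 weeks of age and stayed on them for 12 weeks, to an age of 17 weeks, with 10 mice in each of 4 groups. The groups received a normal diet (ND), a high-fat diet (HFD), the HFD with green tea ethanol extract at 0.25% by weight (GT), or the HFD with Taeeumjowitang, a herbal mixture, at 3% by weight (TJ). Each group had 3 libraries, named here by group and number (ND 1 to TJ 3). The methods state that 3 mice were drawn at random for sequencing from the HFD and the TJ groups. For ND and GT the labels only number the libraries, so that p-values measure the spread between these libraries, which may be technical. Levels are given in FPKM as deposited, a fragment count corrected for transcript length and library depth.

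ND 1 stood apart from the rest. Its Spearman correlation over all genes with the other libraries was 0.666 to 0.829. The 10 adipocyte markers (Fabp4, Cfd, Adipoq and 7 others) summed to 7158 FPKM in ND 1 against 17506 to 68620 FPKM in the other 11 libraries, with all 10 at 1 FPKM or more in every library. Adipoq, which encodes adiponectin, was at 202 FPKM in ND 1 and at 908 to 3738 FPKM elsewhere. The estimated depth was lowest in ND 1, at about 10.2M fragments, and 14.5M to 19.5M in the others.

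Spermatogenesis runs from spermatogonia through the long prophase of meiosis to haploid spermatids, which are then reshaped into sperm. In the spermatid nucleus histones give way first to transition proteins and then to protamines, the small basic proteins that pack the sperm genome, and their messenger RNAs are among the most abundant of the testis. Spermatids also switch to germ line forms of glycolytic enzymes, build the acrosome that carries enzymes to the egg, and assemble the tail with its outer dense fibers and fibrous sheath. White adipose tissue is not known for any of these functions.

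Many spermatid genes are read through the cAMP response element (CRE) by the activator CREM, and the promoters of the 5 sperm chromatin genes, 4 of which had the highest levels of all members in ND 1, and of Akap3 and Akap4, which share a run of letters, are therefore shown. RefSeq held a promoter for 29 of the 32 genes. Acr, Odf1 and Oaz3 had no entry. The letters are the 120 bases before the annotated start, written 5′ to 3′ on the strand of the gene, in build GRCm38.p6. Capitals mark TGANGTCA, a CRE with 1 free base, read on both strands.

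Tnp1, chr1:73015900-73016019, minus strand: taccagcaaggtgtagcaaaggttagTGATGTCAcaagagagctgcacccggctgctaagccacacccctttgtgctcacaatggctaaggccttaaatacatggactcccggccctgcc
Prm1, chr16:10796824-10796943, minus strand: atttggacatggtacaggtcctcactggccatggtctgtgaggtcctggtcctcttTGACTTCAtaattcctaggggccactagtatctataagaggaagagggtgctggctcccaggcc
Prm2, chr16:10792106-10792225, minus strand: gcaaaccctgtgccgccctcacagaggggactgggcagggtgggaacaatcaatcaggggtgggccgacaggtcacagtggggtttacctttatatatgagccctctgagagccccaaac
Prm3, chr16:10790915-10791034, minus strand: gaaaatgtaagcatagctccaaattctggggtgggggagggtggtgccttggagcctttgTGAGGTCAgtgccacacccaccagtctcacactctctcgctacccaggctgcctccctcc
Tnp2, chr16:10788656-10788775, minus strand: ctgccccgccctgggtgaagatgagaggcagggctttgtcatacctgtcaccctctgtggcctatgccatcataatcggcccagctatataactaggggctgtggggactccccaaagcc
Akap3, chr6:126852978-126853097, plus strand: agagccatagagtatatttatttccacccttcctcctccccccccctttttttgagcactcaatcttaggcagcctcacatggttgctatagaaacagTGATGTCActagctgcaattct
Akap4, chrX:7067395-7067514, plus strand: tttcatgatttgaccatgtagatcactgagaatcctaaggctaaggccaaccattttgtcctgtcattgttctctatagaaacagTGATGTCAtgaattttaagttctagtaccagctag

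Prm1, Prm2, Prm3 and Tnp2 lie side by side on chromosome 16, while Tnp1 is on chromosome 1. The motif stood 94 bases before the start of Tnp1, 64 bases before that of Prm1 and 60 bases before that of Prm3, counted from the start to the first base of the motif. It was not in the windows of Prm2 and Tnp2. The Prm2 window held TATAAA, the TATA box, on the opposite strand, and it reads tttata as printed, 31 bases before the start. Akap3, on chromosome 6, and Akap4, on the X chromosome, encode anchoring proteins of the fibrous sheath, and their windows share the run ctatagaaacagTGATGTCA of 20 bases, which was found in these 2 of 32851 promoter windows. That run was searched after the sequences had been seen. RefSeq also lists a later start of Akap4, whose window (chrX:7068090-7068209) held neither the run nor the motif.

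Over the 250 bases before the start, TGANGTCA was in 8 of 29 members (27.6%), in 20 of 48 other spermatid genes with a promoter entry (41.7%), in 1 of 35 other meiotic genes (2.86%) and in 8.55% of all 27025 genes. The full CRE, TGACGTCA, which TGANGTCA includes, was in 0 of 29 members and in 1.77% of all genes. It was in 4.17% of the other spermatid and 0% of the other meiotic genes. Its first letters alone, TGACG, were in 31.0% of the members and 19.8% of all genes. In the other spermatid and other meiotic genes TGACG was in 16.7% and 25.7%. TATAAA was in 6.90% of the members, 12.5% of the other spermatid genes, 11.4% of the other meiotic genes and 14.3% of all genes. Both strands were searched for each motif. These shares describe letters in a window, and no binding was measured.

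The summed level of the 32 genes ran over more than 3 orders of magnitude between libraries. In the ND group it was 114023 FPKM in ND 1, 244 FPKM in ND 2 and 3788 FPKM in ND 3. In the HFD group it was 2458 FPKM in HFD 1, 98.6 FPKM in HFD 2 and 91.7 FPKM in HFD 3. In the GT group it was 143, 63.1 and 69.6 FPKM, and in the TJ group 51.5, 40.6 and 40.7 FPKM. High levels were thus a property of 3 single libraries, ND 1, ND 3 and HFD 1, and neither the ND nor the HFD group had like levels in its 3 libraries. These genes made up 11.4% of all FPKM in ND 1, 0.707% in ND 3 and 0.445% in HFD 1, and 0.00559% to 0.0401% in the other 9 libraries. In bulk tissue, fewer cells of a type and less RNA per cell cannot be told apart.

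The order of the libraries was nearly the same gene by gene. Of the 31 genes above 0, 30 were highest in ND 1, 29 were second highest in ND 3 and all 31 had HFD 1 in rank 3. The exceptions were 2 meiotic genes, Sycp1, which was slightly higher in ND 3, and Sycp3, which was second highest in HFD 3. In 30 of 31 genes HFD 1 exceeded each of the other 9 libraries, again with the exception of Sycp3. In 25 genes ND 2 was the highest of these 9, and in 28 genes GT 1 was the highest GT library.

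**Figure D1:**
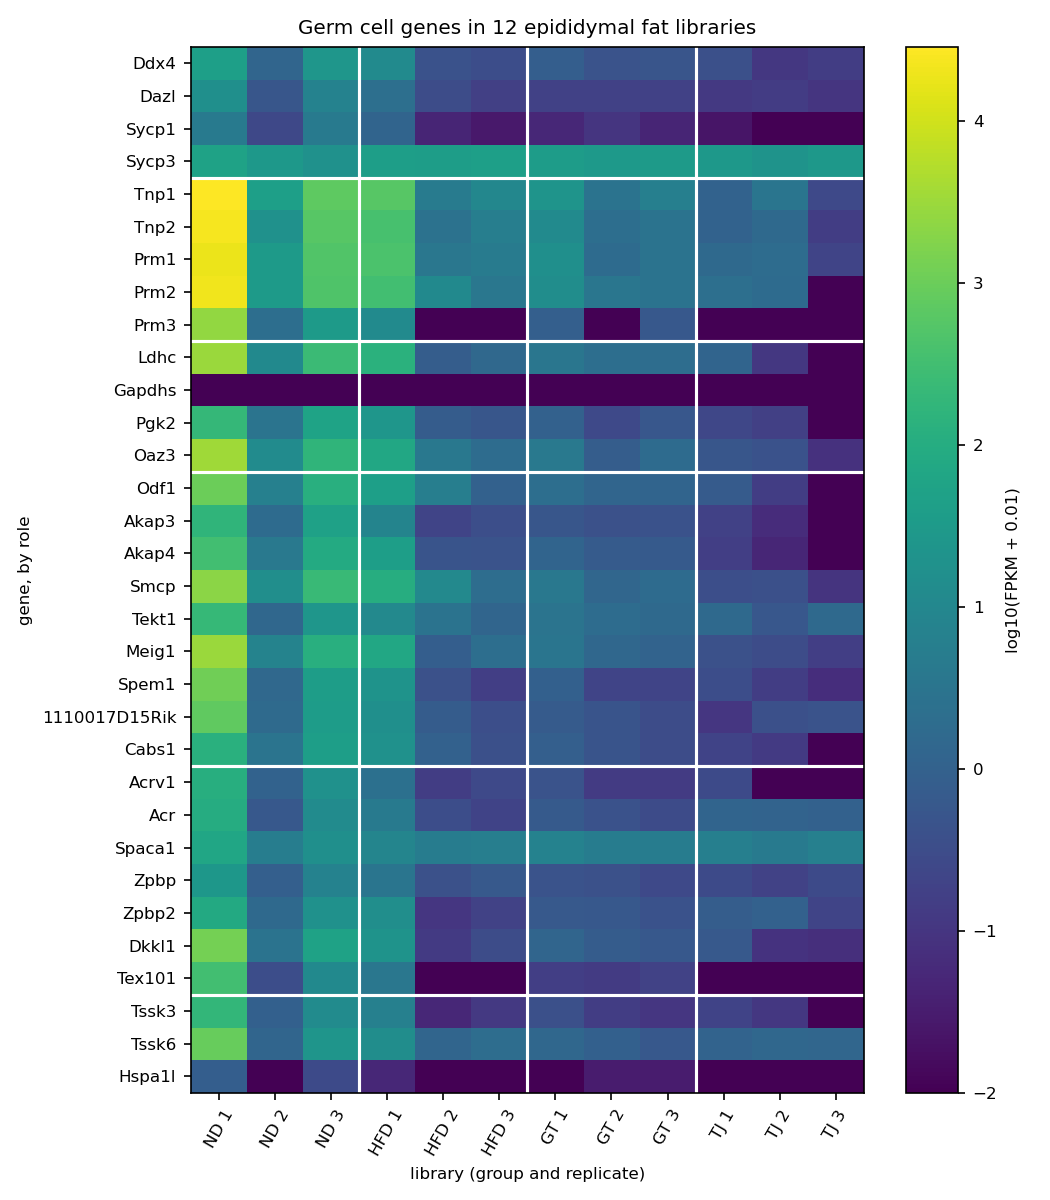
Level of each of the 32 genes (lines, ordered by role) in each of the 12 libraries (columns, by group), as FPKM on a log scale. ND 1, ND 3 and HFD 1 are high for nearly all genes, while Sycp3 lies between 19.0 and 54.0 FPKM in every library.

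The germ cell RNA-binding and meiotic genes had the lowest summed level of the 6 role classes in ND 1, at 120 FPKM. Ddx4, the Vasa RNA helicase of germ cells, was at 45.0, 1.30 and 24.9 FPKM in ND 1 to 3, at 12.1, 0.405 and 0.333 FPKM in HFD 1 to 3, at 0.837, 0.435 and 0.503 FPKM in GT 1 to 3 and at 0.364, 0.104 and 0.142 FPKM in TJ 1 to 3. Dazl, an RNA-binding protein needed for germ cell development, was at 16.7, 0.519 and 7.24 FPKM in the ND libraries, at 2.28, 0.306 and 0.153 FPKM in the HFD libraries, at 0.166 to 0.171 FPKM in GT and at 0.0879 to 0.129 FPKM in TJ. Both genes were highest in ND 1 and next in ND 3, and their ND and HFD libraries overlapped. Sycp1, which forms the transverse filaments of the synaptonemal complex, was at 4.61, 0.246 and 4.71 FPKM in ND, at 1.19, 0.0379 and 0.0184 FPKM in HFD, at 0.0354 to 0.0884 FPKM in GT and at 0.0139, 0 and 0 FPKM in TJ.

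Sycp3, a protein of the lateral elements of the same complex, did not share this pattern. It was at 54.0, 27.2 and 19.0 FPKM in ND, 41.5, 38.6 and 45.2 FPKM in HFD, 37.4, 32.1 and 33.5 FPKM in GT, and 28.5, 20.5 and 27.9 FPKM in TJ. Every library thus held Sycp3 at a level that Ddx4 reached only in ND 1 and ND 3. Sycp3 overlaps Chpt1, a phospholipid synthesis gene on the opposite strand, whose level was 47.7 FPKM in ND 1 and 397 to 1031 FPKM in the other libraries. The sources used here do not state that strand was used in counting, so that reads of Sycp3 and Chpt1 cannot be told apart where the genes overlap.

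Tnp1, Tnp2, Prm1 and Prm2, which act in the sperm chromatin, had the highest levels of the members in ND 1, ND 3 and HFD 1. Tnp1, which encodes transition protein 1, was at 28802, 45.1 and 707 FPKM in ND 1 to 3, at 604, 4.95 and 9.83 FPKM in HFD 1 to 3, at 22.2, 2.87 and 6.29 FPKM in GT 1 to 3 and at 1.04, 3.22 and 0.258 FPKM in TJ 1 to 3. Tnp2, transition protein 2, was at 23509, 18.1 and 598 FPKM in ND, 373, 2.65 and 5.87 FPKM in HFD, 12.5, 2.11 and 2.84 FPKM in GT and 1.04, 1.63 and 0.143 FPKM in TJ. For both genes the lowest ND library lay below HFD 1, and every TJ library lay below every HFD library.

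Prm1, protamine 1, was at 18708, 32.3 and 502 FPKM in ND, 436, 3.71 and 4.93 FPKM in HFD, 16.6, 1.76 and 2.83 FPKM in GT and 1.62, 1.91 and 0.201 FPKM in TJ. Prm2, protamine 2, was at 21394, 32.2 and 475 FPKM in ND, 324, 11.6 and 3.59 FPKM in HFD, 14.9, 3.52 and 2.95 FPKM in GT and 2.25, 1.82 and 0 FPKM in TJ. Prm3, encoded between Prm2 and Tnp2, was at 2658, 2.19 and 32.6 FPKM in ND, 12.0, 0 and 0 FPKM in HFD, 0.885, 0 and 0.578 FPKM in GT, and was listed at 0 in all 3 TJ libraries. Among all genes ranked by the difference in log2(FPKM + 1) between ND 1 and the median of the other 11 libraries, Tnp2, Prm2, Prm1 and Tnp1 were 4th, 6th, 7th and 8th, Prm3 was 11th, and Sycp3 was 6181st.

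Transition proteins precede protamines in the spermatid nucleus. The ratio of Tnp1 to Prm1 was 1.54, 1.40 and 1.41 in ND 1 to 3, 1.39, 1.34 and 1.99 in HFD 1 to 3, 1.34, 1.64 and 2.22 in GT 1 to 3 and 0.643, 1.68 and 1.28 in TJ 1 to 3. TJ 1 was the only library with less Tnp1 than Prm1. Tnp1 was at 1.04 FPKM there, where 1 fragment was worth about 0.136 FPKM, so that this ratio rests on few fragments. In TJ 3, where Tnp1 was at 0.258 FPKM, 1 fragment of it was worth about 0.133 FPKM, an approximate value estimated from the steps between FPKM values.

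Of the energy and polyamine genes, Oaz3, the antizyme of spermatids that controls polyamine synthesis, was at 3452, 12.8 and 172 FPKM in ND, 73.4, 3.91 and 1.86 FPKM in HFD, 4.15, 0.811 and 1.79 FPKM in GT and 0.536, 0.411 and 0.0746 FPKM in TJ. Ldhc, the lactate dehydrogenase of germ cells, was at 3027, 11.7 and 250 FPKM in ND, 132, 0.772 and 1.53 FPKM in HFD, 3.51, 2.20 and 2.07 FPKM in GT and 1.17, 0.0986 and 0 FPKM in TJ. Both were highest in ND 1, then in ND 3 and HFD 1, and Ldhc was lower in HFD 2 than in TJ 1. Pgk2, the phosphoglycerate kinase of the germ line, reached 199 FPKM in ND 1 and 56.0 FPKM in ND 3. Oaz3 overlaps Tdrkh and Mrpl9 on the opposite strand.

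The 9 tail and manchette genes were all at 1 FPKM or more in ND 1, ND 2, ND 3 and HFD 1. Meig1, which is needed to build the manchette, was at 3102, 7.74 and 121 FPKM in ND, 74.4, 0.833 and 2.19 FPKM in HFD, 3.30, 1.46 and 1.13 FPKM in GT and 0.399, 0.316 and 0.152 FPKM in TJ. Smcp, a protein of the mitochondrial capsule in the sperm midpiece, was at 2181, 15.1 and 239 FPKM in ND, 105, 11.1 and 2.06 FPKM in HFD, 3.78, 1.34 and 1.79 FPKM in GT and 0.342, 0.373 and 0.0834 FPKM in TJ. In both genes the TJ libraries were the lowest 3 of the 12. The other 7 (Odf1, Akap3, Akap4, Tekt1, Spem1, 1110017D15Rik and Cabs1) reached 129 to 1145 FPKM in ND 1 and 24.7 to 120 FPKM in ND 3. Tekt1, a tektin that motile cilia also contain, kept 0.547 to 3.09 FPKM in the 9 low libraries. The 10 multiciliated cell markers summed to 289 FPKM in ND 1, 96.4 FPKM in ND 3 and 16.8 FPKM in HFD 1 and to at most 4.83 FPKM elsewhere, with 8 of 10 at 1 FPKM or more in ND 3 and 5 of 10 in ND 1. Tekt4 and Deup1 were the highest of them in ND 1, at 210 and 52.7 FPKM, and Foxj1, the defining factor of such cells, was at 37.2 FPKM in ND 3 and 14.5 FPKM in ND 1. The part of ciliated cells in the level of Tekt1 was not tested.

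Among the 7 acrosome and sperm surface genes, Dkkl1, an acrosomal protein, was at 1280, 2.81 and 53.5 FPKM in ND, 20.7, 0.118 and 0.300 FPKM in HFD, 1.25, 0.751 and 0.608 FPKM in GT and 0.626, 0.0765 and 0.0659 FPKM in TJ. Tex101, a surface protein of germ cells, was at 311, 0.322 and 11.9 FPKM in ND, 3.72, 0 and 0 FPKM in HFD, 0.122 to 0.182 FPKM in GT, and was listed at 0 in TJ. Acrv1, Acr, Zpbp and Zpbp2, which take part in building the acrosome or in binding the egg coat, reached 25.5 to 111 FPKM in ND 1 and 7.33 to 18.7 FPKM in ND 3. Spaca1 was the exception in this class, with 4.53 to 7.25 FPKM in the 9 low libraries against 66.9 FPKM in ND 1, 16.4 FPKM in ND 3 and 8.76 FPKM in HFD 1.

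The testis-specific kinases ranged likewise. Tssk6 was at 924, 1.23 and 22.7 FPKM in ND, 14.6, 1.27 and 2.07 FPKM in HFD, 1.40, 0.955 and 0.600 FPKM in GT and 1.16, 1.44 and 1.33 FPKM in TJ, and it overlaps Ndufa13, a subunit of respiratory complex I on the opposite strand that was at 28.4 to 282 FPKM. Tssk3 was at 194, 0.932 and 13.3 FPKM in ND, 6.54, 0.0415 and 0.106 FPKM in HFD, 0.0938 to 0.373 FPKM in GT and 0.186, 0.101 and 0 FPKM in TJ. Hspa1l, a heat shock protein of spermatids, did not reach 1 FPKM in any library, and its highest value was 0.829 FPKM, in ND 1.

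The high libraries were then compared for the make-up of the signal. For 26 members at 10 FPKM or more in ND 3, Sycp3 left out, the median ratio to ND 3 was 0.454 in HFD 1, 0.0548 in ND 2 and 0.0237 in GT 1. In HFD 1 these ratios ran from 0.128 for Acrv1 to 0.870 for Prm1. The order of the 26 genes by level in ND 3 was close to that in HFD 1, with a Spearman rho of 0.939, and to that in ND 2, with a rho of 0.914. It was 0.807 in ND 1, 0.768 in GT 1 and -0.123 in TJ 3, where 14 of the 32 members were listed at 0. These correlations are across genes, which are not independent replicates, and the genes share their transcript lengths and fragment bias between libraries.

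**Figure D2:**
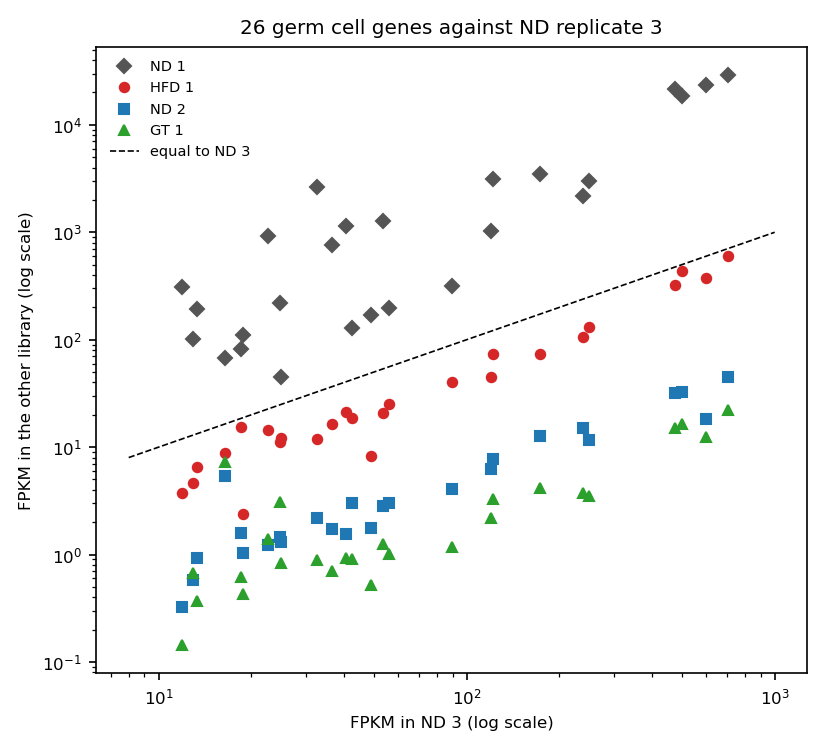
FPKM of 26 members in ND 1, HFD 1, ND 2 and GT 1 (vertical axis) against their FPKM in ND 3 (horizontal axis), both on log scales, with the line of equal levels. HFD 1 lies just below the line, ND 2 and GT 1 run further below it, and ND 1 lies above it with a wider scatter.

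ND 1 differed from ND 3 in make-up as well as in level. Its median ratio to ND 3 was 13.3, from 1.80 for Ddx4 to 81.6 for Prm3. Tnp1, Tnp2, Prm1 and Prm2 had a median ratio of 40.0 and the other 22 members one of 8.98. The same 4 genes were also relatively higher in HFD 1, at 0.768 times their level in ND 3 against 0.449 for the other 22, while in ND 2 the medians were 0.0641 and 0.0541. The 5 chromatin genes took 83.4% of the members' summed FPKM in ND 1, 71.2% in HFD 1, 61.1% in ND 3 and 53.2% in ND 2, 46.8% in GT 1 and 1.48% to 26.4% in the other 7 libraries.

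Meiotic genes were set against spermatid genes as their share of the same sum. The 4 RNA-binding and meiotic members made up 0.106% in ND 1, 1.48% in ND 3 and 2.32% in HFD 1, 12.0% in ND 2 and 26.8% to 69.1% in the other 8 libraries. Sycp3 carried most of this share in the low libraries. Without it, Ddx4, Dazl and Sycp1 made up 0.0581% in ND 1, 0.978% in ND 3, 0.642% in HFD 1, 0.951% in ND 2, 0.990% in GT 1 and 1.09% to 2.22% elsewhere. For these few meiotic members, ND 1 thus had the lowest share of the 12 libraries by either sum. The shares without Sycp3 were alike in ND 2, ND 3 and GT 1, whose summed levels were far apart. The wider lists given below showed no fall of that size from ND 3 to ND 1. There, 45 other meiotic genes summed to 521 FPKM in ND 3 and 5795 FPKM in ND 1. The 61 other spermatid genes summed to 2284 FPKM in ND 3 and 28050 FPKM in ND 1.

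Transcript length moved with this contrast in ND 1. Across 29 members at 1 FPKM or more in ND 1, ND 3 and HFD 1, the ratio of ND 1 to ND 3 had a Spearman rho of -0.829 with length, and its median was 24.7 for 12 members under 1000 nt, 8.63 for 11 members of 1000 to under 2000 nt and 2.88 for 6 members of 2000 nt or more. For other spermatid genes the medians of these length classes were 21.3, 8.80 and 2.63, and for other meiotic genes 8.33, 4.26 and 3.31. Over all 11585 genes the rho was -0.338 and the medians were 1.63, 1.06 and 0.522. Among the longest genes the spermatid and meiotic medians were therefore close, and among the shortest they were apart, although only 5 meiotic genes were that short. The ratio of HFD 1 to ND 3 had a rho of -0.327 with length in the members and -0.130 over all genes. The part of transcript length in the low share of the meiotic members in ND 1 was not tested.

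**Figure D3:**
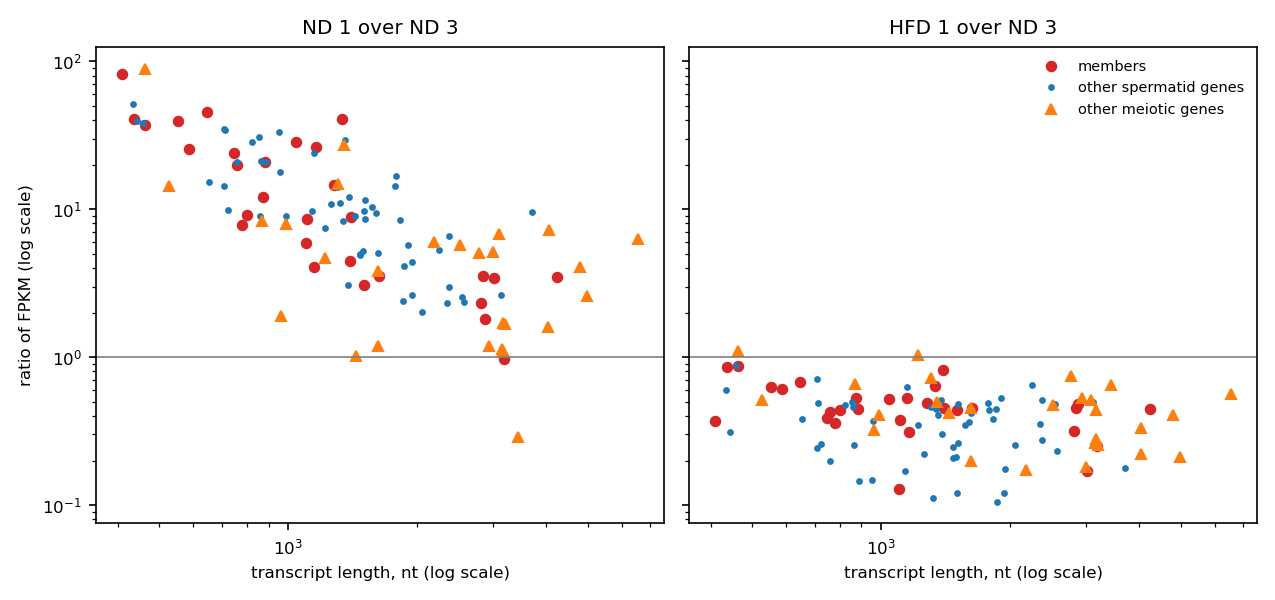
Ratio of FPKM in ND 1 (left) and in HFD 1 (right) to FPKM in ND 3 against transcript length in nt, all on log scales. The members, other spermatid genes and other meiotic genes are shown. On the left the ratio falls with length in each set. Its medians go from 24.7, 21.3 and 8.33 under 1000 nt to 2.88, 2.63 and 3.31 at 2000 nt or more.

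Other germ cell genes, from lists written from general knowledge, had their highest sums in ND 1, ND 3 and HFD 1, like the members. Of 62 further spermatid genes 61 were in the table (Pgam4 was not), and they summed to 28050, 145 and 2284 FPKM in ND 1 to 3, 968, 62.9 and 47.1 FPKM in HFD, 86.1, 52.6 and 53.1 FPKM in GT and 48.5, 43.9 and 42.5 FPKM in TJ. Tcp11, a sperm tail protein, was at 2952 FPKM in ND 1, 177 FPKM in ND 3 and 78.0 FPKM in HFD 1, with Spa17 and Odf2 next in ND 1 at 2471 and 2252 FPKM. Odf2, which centrosomes of other cells also contain, kept 11.2 to 27.0 FPKM in the 9 low libraries. The 45 further meiotic and early germ cell genes summed to 5795, 40.2 and 521 FPKM in ND, 243, 26.1 and 19.13 FPKM in HFD, and 21.0 to 29.6 FPKM in GT and TJ. Ybx2, a germ cell protein that stores messenger RNA, was at 3500 FPKM in ND 1 and 129 FPKM in ND 3, followed by Hspa2 at 367 and 64.4 FPKM and Syce3, of the synaptonemal complex, at 338 and 3.79 FPKM. At 1 FPKM or more were 59 of 61 spermatid and 41 of 45 meiotic genes in ND 1, 58 and 32 in ND 3, and 54 and 27 in HFD 1.

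Markers of the somatic cells of the testis had their highest sums in the same 3 libraries, at lower levels and with the smallest margin in HFD 1. The 8 Leydig cell markers summed to 1568 FPKM in ND 1, 48.6 FPKM in ND 3 and 24.1 FPKM in HFD 1 and to 1.37 to 6.87 FPKM elsewhere, with 7, 6 and 3 of the 8 at 1 FPKM or more in these 3 libraries. Insl3, the relaxin-like hormone of Leydig cells, was at 1488, 27.4 and 19.14 FPKM in them, and the steroid synthesis enzymes Cyp17a1 and Cyp11a1 were at 33.2 and 21.4 FPKM in ND 1, 8.10 and 4.26 FPKM in ND 3, and 0.877 and 0.974 FPKM in HFD 1, while HFD 2 held Cyp17a1 at 4.01 FPKM. The 12 Sertoli cell markers summed to 344, 51.4 and 22.8 FPKM in the 3 libraries and to 3.11 to 16.3 FPKM elsewhere, with 11, 7 and 7 of the 12 at 1 FPKM or more. Gstm6, Aard and Inha, an inhibin subunit, led this list in ND 1 at 87.8, 65.7 and 52.6 FPKM, but Gstm6 was also at 1.55 to 9.24 FPKM in the 9 low libraries.

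Markers of the epididymis epithelium moved differently. Of 15 listed, 14 were in the table (Teddm1 was not), and they summed to 22478 FPKM in ND 1, 11.1 FPKM in ND 2 and 48.5 FPKM in ND 3, and to 15.4, 1350 and 1.13 FPKM in HFD 1 to 3, 0.470 to 1.40 FPKM in GT and 4.45 to 13.8 FPKM in TJ. All 14 were at 1 FPKM or more in ND 1. Lcn8, a lipocalin, Gpx5, a secreted glutathione peroxidase, and Lcn5 were at 8812, 6364 and 2111 FPKM in ND 1, at 4.91, 4.91 and 1.48 FPKM in ND 3, and were all listed at 0 in HFD 1. Cst8, a cystatin, made up 34.3 FPKM of the sum in ND 3 and 14.5 FPKM of that in HFD 1. In HFD 2 most of the sum came from Crisp1, a sperm-coating protein, at 1172 FPKM, with Adam7, Spint3 and Rnase9 at 103, 59.1 and 16.0 FPKM, while the members summed to 98.6 FPKM there. At 1 FPKM or more were 4 of the 14 markers in ND 3, 1 in HFD 1 and 4 in HFD 2. The part of any of these cell types in the group comparisons was not tested.

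**Figure D4:**
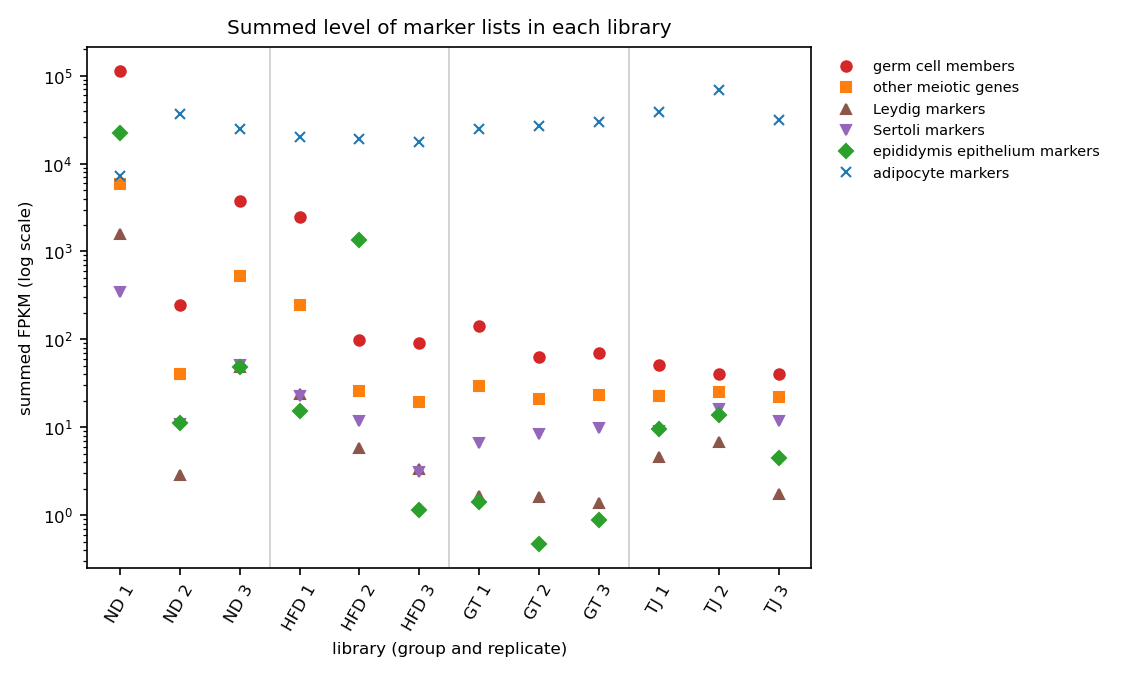
Summed FPKM (log scale) of the members, the other meiotic genes and the marker lists in each of the 12 libraries. The marker lists drawn are those of Sertoli cells, Leydig cells, epididymis epithelium and adipocytes. The members and the other meiotic genes peak in ND 1, ND 3 and HFD 1. The epididymis markers peak in ND 1, at 22478 FPKM, and in HFD 2, at 1350 FPKM.

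Depth limited the lowest values. An estimated 1 fragment of Tnp1 was worth 0.117 to 0.224 FPKM and 1 fragment of Ddx4 0.0178 to 0.0340 FPKM, depending on the library. The members at 1 FPKM or more numbered 30, 24 and 30 in ND 1 to 3, 30, 12 and 13 in HFD, 16, 11 and 12 in GT and 10, 9 and 4 in TJ. Listed at 0 were 1 or 2 members in ND and GT, 1, 4 and 4 in HFD and 4, 6 and 14 in TJ. An entry of 0 in such a table can also be a failed estimate. Prm3 and Tex101, listed at 0 in every TJ library, were also at 0 in HFD 2 and HFD 3.

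The groups were compared with limma on log2(FPKM + 1), and genes were called at a Benjamini-Hochberg adjusted p under 0.05 with a fold change of at least 1.5. These comparisons share the libraries in which the members had been chosen, so that the counts below are descriptions, and the HFD libraries enter all 3. In HFD against ND, 30 members were tested and 0 were called, beside 1.77% of the 14430 genes tested (1.73% higher and 0.0416% lower in HFD). At an unadjusted p under 0.05 were 0 members and 11.6% of all genes, while without ND 2 there were 29 of 30 members and 26.2% of all genes and without HFD 1 there were 7 members and 6.76%. Their median log2 fold change was -3.44, and 29 of 30 were lower in HFD, against a median of 0.07 over all genes. The members' median was -1.80 without ND 1 and -5.23 without ND 2. Tnp1 averaged 206 FPKM in HFD with an SD of 345 and 9851 FPKM in ND with an SD of 16415 (n = 3 each), with a log2 fold change of -4.85, an SE of 2.79 and an adjusted p of 0.494 by limma. The adjusted p of the 30 members ran from 0.468 to 0.595. In 0 of 30 members did all HFD libraries lie below all ND libraries, as they did in 5.89% of all genes, and 0 of 30 had all HFD libraries above all ND libraries, against 20.5% of all genes. Between same-numbered libraries, 27 of 30 members were lower in HFD in each of the 3 pairs, as were 18.1% of all genes, with the exceptions of Sycp3, Tekt1 and Tssk6. With the replicate number as a block, 0 of 14430 genes were called in place of 255, the members called remained at 0, and 26 members and 15.5% of all genes had an unadjusted p under 0.05.

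The count in HFD against ND changed when libraries were left out. Without ND 1, Sycp3 was called as higher in HFD, with a log2 fold change of 0.85 and an adjusted p of 0.0378 by limma, among 30 members tested and with 15.4% of 13661 genes called. Without ND 1, ND 3 and HFD 1 together, 9 of 17 members tested were called, all lower in HFD, beside 7.55% of 12516 genes called as lower and 25.9% called in all. They were Tnp1, Tnp2, Prm1, Pgk2, Ldhc, Oaz3, Akap4, Meig1 and Dkkl1. Several of the 17, such as Akap4, Dkkl1 and Pgk2, passed the filter of a mean of 1 FPKM only through their level in ND 2, so that the count cannot stand for all members. The comparison sets HFD 2 and HFD 3 against ND 2 alone, whose spread is assumed to be that of the HFD libraries, and the libraries were removed for their levels of these genes after the data had been seen, so that these calls are a description and no test of HFD against ND.

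In GT against HFD, 25 members were tested and 0 were called, beside 3.63% of 12766 genes (1.83% higher and 1.81% lower in GT). At an unadjusted p under 0.05 were 1 member, Sycp3, and 29.3% of all genes. Their median log2 fold change was -1.25, with -0.12 over all genes, and their adjusted p by limma was 0.139 to 0.677. Every GT library lay below every HFD library in 1 of 25 members, Sycp3, and in 24.4% of all genes, and above every HFD library in 0 members and 12.3% of all genes. Without HFD 1, which held the high levels of this group, 13 members remained above the filter of a mean of 1 FPKM and their median log2 fold change was 0.06.

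In TJ against HFD, 25 members were tested and 1, Sycp3, was called, beside 18.5% of 12807 genes (7.41% higher and 11.1% lower in TJ). At an unadjusted p under 0.05 were 6 members and 41.4% of all genes, with 12 and 13 members at pseudocounts of 0.1 and 0.01, 2 without TJ 2 or TJ 3, 3 without TJ 1 and 10 without HFD 2. Sycp3 averaged 25.6 FPKM in TJ with an SD of 4.45 and 41.8 FPKM in HFD with an SD of 3.33 (n = 3 each), with a log2 fold change of -0.70, an SE of 0.16 and an adjusted p of 0.0346 by limma. Its neighbor Chpt1 averaged 660 FPKM in TJ with an SD of 64.3 and 458 FPKM in HFD with an SD of 55.1, so that it was higher where Sycp3 was lower. The call of Sycp3 was lost with the replicate block (adjusted p of 0.0547 by limma), with no filter (0.0596), with all 12 libraries in the fit (0.309), with median-of-ratios scaling, where its log2 fold change was -0.57 and thus under the fold threshold, and when any single library other than TJ 3 was left out. Without HFD 1, HFD 2, HFD 3 or TJ 1 its log2 fold change was -0.70, -0.75, -0.64 or -0.78, and 0 genes of the whole table were called. Without TJ 2 it was -0.55, under the fold threshold. Tnp1 had a log2 fold change of -3.94 with an SE of 1.63 and an adjusted p of 0.115 by limma.

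Every TJ library lay below every HFD library in 13 of the 25 members and in 31.4% of all genes tested, and above every HFD library in 0 members and 20.1% of all genes. These were Tnp1, Tnp2, Prm1, Prm2, Oaz3, Pgk2, Odf1, Akap3, Akap4, Cabs1, Smcp, Meig1 and Sycp3. The median log2 fold change of the 25 was -1.49, with -0.14 over all genes, and it was -2.69 and -4.13 with pseudocounts of 0.1 and 0.01, and the adjusted p by limma ran from 0.0346 to 0.978. Without HFD 1 the median was -1.45 over the 11 members that then passed the filter, and 0 of these 11 and 0 of all 12411 genes were called. Members pass this filter mainly through their high libraries, so that neither median covers all 32 genes. Among the other spermatid and meiotic genes, 0 were called in each of the 3 comparisons. At an unadjusted p under 0.05 there were 1 of 59 spermatid and 0 of 35 meiotic genes in HFD against ND, 0 of 36 and 1 of 12 in GT against HFD, and 3 of 35 and 1 of 12 in TJ against HFD, where 11.6%, 29.3% and 41.4% of all genes passed in the same order.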

How the data were processed

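RNA of eWAT was sequenced in 12 libraries, 3 per group. The values were FPKM, which the authors computed from filtered reads with Cufflinks 2.1.1 after mapping with STAR. The submitters' processing notes name STAR 2.4.0 and CASAVA 1.8.2, and the methods name another STAR version and an Ensembl release of the human genome, whereas the 23474 deposited identifiers are mouse. The mouse genome build is not given in the sources used here. The authors' read counts were not used here, so limma took the place of a count test.

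Symbols, positions (GRCm38) and transcript lengths came from GENCODE M21, which named 22671 identifiers. Of the deposited FPKM values, 424 were under 1e-06 and were set to 0. Depth was estimated from steps between FPKM values in 2315 single-transcript genes of at least 1500 nt. No counting intervals were derived from it.

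Groups were compared with limma 3.58.1 (R 4.3.3, lmFit, and eBayes with a trend) on log2(FPKM + 1), over all genes whose mean in the 6 libraries compared reached 1 FPKM. Fold changes on this scale understate those of low genes. Same-numbered libraries of HFD and ND deviated together (correlations of 0.547, 0.342 and 0.122, all of them past 0.1), so that the fit with the replicate block is given beside the unblocked one, although no source names what a number shares and HFD 3 with ND 2 gave 0.626. Tables were made with pandas 2.3.3, numpy 2.4.6 and scipy 1.17.1 in python 3.11.15.

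The members and lists were chosen with earlier results of these data known. Values are given per library for the 4 meiotic and 5 chromatin genes and for the 2 members with the highest FPKM in each other class. Of each other list the 3 genes with the highest FPKM are named, and outside the lists the 10 genes with the largest difference between ND 1 and the median of the other 11 libraries. Genes named beside these were chosen after their values had been seen. The alternatives were other pseudocounts, filters and scalings, all 12 libraries in the fit, the replicate block and each library left out in turn.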

Additional observations from a re-analysis of the deposited data

How the results depend on the processing

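The number of genes called over the 3 germ cell lists (members, other spermatid and other meiotic genes) was 0 in HFD against ND, 0 in GT against HFD and 1 in TJ against HFD. In HFD against ND it stayed at 0 with the replicate block, all 12 libraries, quantile normalization or median-of-ratios scaling, a filter at a mean of 5 FPKM or none, and pseudocounts of 0.1 or 0.01, was 0 to 1 with 1 library left out, and was 19 without ND 1, ND 3 and HFD 1 together (9 members, 9 spermatid genes and 1 meiotic gene). In GT against HFD it was 0 under every alternative. In TJ against HFD it was 4 with a pseudocount of 0.1 and 3 with 0.01 (all of them among 25 members tested, beside 2538 and 2537 of 12807 genes, 19.8% each), 0 with no filter, 0 with median-of-ratios scaling, 0 with all 12 libraries, 0 with the replicate block, 1 with the stricter filter or quantile normalization, and 0 to 1 with 1 library left out. The cause of these changes was not tested. In GT and TJ against HFD not every same-numbered pair deviated together (0.198, 0.0534 and -0.0698 for GT, -0.0287, -0.0514 and 0.227 for TJ), and the libraries there share only a number. Over all genes, the 255 calls of HFD against ND became 126 and 111 with pseudocounts of 0.1 and 0.01, 1131 with all 12 libraries, 0 with the block, 3238 without the 3 libraries and 0 to 2098 with 1 left out. The 464 calls of GT against HFD became 5 with no filter, 1 with all 12 libraries, 5 with the block and 4 to 1107 with 1 left out. The 2366 calls of TJ against HFD became 385, 1 and 1198 under the same settings, and 0 to 3412 with 1 left out. Scaling moved the split of higher and lower calls, from 949 and 1417 to 1175 and 1170 with median-of-ratios scaling and 1550 and 1109 with quantile normalization in TJ against HFD, and from 233 and 231 to 360 and 137 and to 419 and 160 in GT against HFD. It moved the median log2 fold change of all genes from 0.07 to -0.12 in HFD against ND, from -0.12 to -0.02 in GT against HFD and from -0.14 to -0.03 in TJ against HFD with median-of-ratios scaling, and to 0.08, 0.04 and 0.04 in the same order with quantile normalization. At an unadjusted p under 0.05 were 22 members with all 12 libraries and 26 with the block in HFD against ND, 4 with the block in GT against HFD, and 1, 10 and 3 members with all 12 libraries, the block and no filter in TJ against HFD, and with 1 library left out 0 to 29, 0 to 2 and 2 to 10 in the 3 comparisons. The median log2 fold change of the members was -5.23 to -1.80, -1.99 to 0.06 and -2.25 to -1.45 with 1 left out, and -2.86 with a mean of 5 FPKM in TJ against HFD. The summed FPKM in ND 1 was 152590 with median-of-ratios scaling and 85221 without Tnp1, the highest member. Without Sycp3, an alternative chosen after seeing the data, the sums of HFD 2, HFD 3 and the GT and TJ libraries were 12.8 to 106 FPKM. The SDs of the ND and HFD sums are too large to serve as a yardstick. The number of members detected changed by more than 1.5 times in 8 libraries at a threshold of 0.1 FPKM and in 9 libraries at 5 FPKM. With 3 libraries per group and unlike levels within ND and HFD, the spread within these groups limits what the comparisons can show.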

Other observations

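Outside the lists, the 10 genes with the largest difference in log2(FPKM + 1) between ND 1 and the median of the other 11 libraries fell into groups with different levels in ND 3 and HFD 1. Defb25, Defb15, Defb48, Defb20, Defb28, Spag11b and Gm17416 were at 1891 to 7415 FPKM in ND 1, at 0.451 to 8.37 FPKM in ND 3 and listed at 0 in HFD 1. Defb28 was also at 265 FPKM in HFD 2 and 10.5 FPKM in TJ 2. The first 6 are beta-defensins or a related gene of the epididymis. Hspb9, a small heat shock protein of the testis, was at 4713, 59.1 and 35.7 FPKM in ND 1, ND 3 and HFD 1, Gm15517 at 1896, 30.4 and 17.6 FPKM, and 4930570D08Rik at 1592, 227 and 106 FPKM.

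Over the whole table, 643 genes were at 1 FPKM or more in ND 1, ND 3 and HFD 1 and in each of them at least 5 times the highest of the other 9 libraries, a criterion chosen after the data had been seen. They included 21 members, 31 other spermatid genes, 17 other meiotic genes, 2 Sertoli cell markers, 1 Leydig cell marker, 1 epididymis marker (Cst8), 1 multiciliated cell marker and 0 adipocyte markers, and 569 were in no list. Fabp9, the fatty acid-binding protein of testis, was among the highest of these 569, at 2973 FPKM in ND 1, 162 FPKM in ND 3 and 85.0 FPKM in HFD 1 and at most 8.55 FPKM elsewhere. The X chromosome held 3.59% of the 640 such genes with a position and 2.81% of the 11585 genes at 1 FPKM or more in the same 3 libraries.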
